A study of Mus musculus with 2 samples.

Results

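Spp1 Lpl Ccl24 macrophages are tumour macrophages with a high level of osteopontin mRNA that also carry UMIs of Lpl, Ccl24 or Mmp12, and 212 of the 22699 barcodes kept from both libraries belonged to them. They were chosen by their own UMI counts, with a UMI being 1 sequenced mRNA molecule and a barcode standing for 1 cell. A barcode needed at least 10 Spp1 UMIs and at least 3 UMIs of Lpl, Ccl24 and Mmp12 together. It also needed fewer than 2 UMIs of Folr2, Cbr2 and Ccl8, genes of tissue-resident macrophages. No UMI of Cd3d, Cd3e, Cd3g or Ncr1 (T and NK cells) was allowed, and fewer than 3 of Xcr1, Clec9a, Ccr7 and Siglech (dendritic cells). The levels of these genes in the chosen cells are therefore a description, and nothing was tested with them.

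Spp1 encodes osteopontin, a secreted phosphoprotein that binds integrins and CD44 and is made in large amounts by macrophages of wounds, atheroma and many tumours. Lpl encodes lipoprotein lipase, which frees fatty acids from triglyceride-rich lipoproteins. Ccl24 encodes eotaxin-2, a chemokine that draws eosinophils through CCR3 and is a known target of IL-4 signalling in mouse macrophages. Mmp12 encodes macrophage elastase, a protease that cuts elastin and other matrix proteins. In RefSeq's GRCm38.p6 annotation Spp1 lies at chr5:104435111-104441053, Ccl24 at chr5:135569935-135573123, Lpl at chr8:68880555-68906932 and Mmp12 at chr9:7344397-7360461. Macrophages that take up lipid commonly turn on fatty acid binding proteins and lysosomal genes, and cells loaded with sterol lower their cholesterol synthesis genes through SREBP2 and raise efflux genes through LXR.

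The cells came from subcutaneous B16F10 tumours, grown from a transplantable mouse melanoma line, in wild-type mice. The control mice had been given untreated bone marrow-derived macrophages (BMDMs), and the IL4 mice BMDMs that had been treated with IL-4. CD45-positive cells, the leukocytes, had been sorted from the tumours for 10x Genomics sequencing, with 1 library per group. Each library's treatment protocol speaks of IL-4-treated BMDMs, which differs from the treatment given among the sample characteristics for the control, and the grouping follows the latter. The age, sex and number of the mice are not given in the sources used here, and transferred cells carry no label that sets them apart from the host's own. With 1 library per group there was no replicate check and no test between the groups. Every interval below is a 95% interval that covers counting error only.

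The filter kept 8937 of 8994 control barcodes and 13762 of 13873 IL4 barcodes, with 95499107 and 133151428 UMIs deposited and a median of 9156.5 and 8213 UMIs per barcode. Both libraries held barcodes with Xist UMIs and barcodes with UMIs of Y-linked genes (Ddx3y, Eif2s3y, Kdm5d or Uty). Xist-only and Y-only barcodes made up 4296 and 2497 of the control, against 10058 and 1227 of the IL4 library, so the mix of sexes and the group cannot be told apart in the pooled values. Between the libraries 23 barcode sequences were shared, and 0 of them were among the chosen cells.

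In the control library 502 of the kept barcodes had at least 10 Spp1 UMIs, and 214 of those also had at least 3 UMIs of Lpl, Ccl24 and Mmp12. The limit on resident genes left 191, the T and NK limit 157 and the dendritic cell limit 151. In the IL4 library the same steps left 314, 97, 72, 65 and 61 barcodes. The limits cut through a continuum. In the control, 18 chosen barcodes had 10 to 12 Spp1 UMIs, and 23 barcodes with 7 to 9 lay just outside, against 11 and 21 in IL4. For the sum of Lpl, Ccl24 and Mmp12, 17 control barcodes lay inside at exactly 3 UMIs and 82 outside at 1 or 2, against 7 and 38 in IL4.

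**Figure D1:**
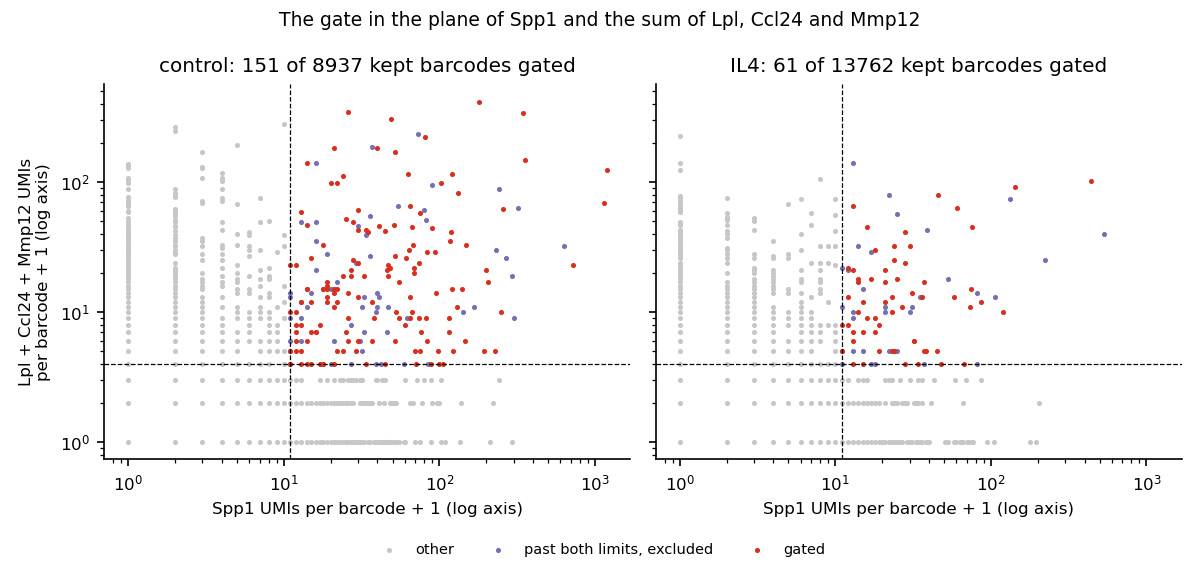
Spp1 UMIs per barcode plus 1 (x, log axis) against the summed Lpl, Ccl24 and Mmp12 UMIs per barcode plus 1 (y, log axis) in the control (left) and IL4 (right) library, with dashed lines at the limits of 10 and 3 UMIs. Red points, called gated in this and the other plots, are the 151 control and 61 IL4 barcodes chosen, purple points passed both limits but were removed by the resident, T and NK or dendritic cell limits, and grey points are other kept barcodes. Points lie on both sides of each limit with no empty band between them.

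Among the 151 control cells Spp1 ran from 10 to 1186 UMIs per barcode with a median of 33, and among the 61 IL4 cells from 10 to 439 with a median of 22. At least 100 Spp1 UMIs were found in 26 control and 3 IL4 cells. The 10 richest barcodes held 42.7% of the chosen cells' Spp1 UMIs in the control and 52.4% in IL4. The chosen cells were 1.69% of the kept control barcodes but held 38.8% of all Spp1 UMIs there, and they were 0.443% of the IL4 barcodes and held 14.6%. For Lpl these shares of all UMIs were 19.6% and 6.19%, for Ccl24 27.5% and 6.48%, and for Mmp12 19.0% and 14.1%. In both libraries a few barcodes thus held a large share of the Spp1 UMIs. These are values of a gene that made the choice, and the top 10 barcodes are a smaller part of 151 cells than of 61.

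After each barcode had been thinned to 2000 UMIs, 92.1% of the control and 95.1% of the IL4 cells still had a Spp1 UMI. T cell barcodes, set beside them as a reference for background, had one in 5.56% and 4.80%, though activated T cells can make osteopontin themselves. For Lpl the thinned shares were 43.7% and 37.7% against 1.39% and 0.873% in T cell barcodes. For Ccl24 they were 43.7% and 27.9% against 5.56% and 0%, and 0 of 229 T cell barcodes allows a share of up to 1.31%. For Mmp12 they were 15.9% and 19.7% against 0% and 0.873%, and 0 of 144 allows up to 2.08%. Without thinning, the shares with a UMI were 72.2% and 62.3% for Lpl, 62.3% and 52.5% for Ccl24 and 23.8% and 29.5% for Mmp12, at a median depth of 13588 and 12511 UMIs against 7164 and 7739 in T cell barcodes.

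The chosen cells carried the markers of macrophages. The 12 macrophage markers (among them Cd68, Csf1r, Adgre1, C1qa, C1qb, C1qc, Apoe and Lyz2) summed to 12582 CPM, the UMIs of a gene per 1000000 UMIs summed over all cells of a population, in the control cells and 14483 in the IL4 cells, against 11476 and 10810 in the other macrophages. All 12 could be compared, and 0 were past 2-fold from the other macrophages. The latter had been chosen by at least 3 UMIs of Csf1r, Adgre1, C1qa, C1qb and C1qc together, which bears on this comparison. The chosen cells were under no such limit, and 133 of 151 control and 53 of 61 IL4 cells met it. Yet 25 of 151 control and 6 of 61 IL4 cells had no UMI of C1qa, C1qb or C1qc. Mki67 or Top2a, genes of dividing cells, had a UMI in 16 of 151 control cells (10.6%, interval 6.18% to 16.6%) and in 15 of 61 IL4 cells (24.6%, interval 14.5% to 37.3%). A list of 18 cell cycle genes lay the other way, with a sum of 536 CPM in the control and 478 CPM in IL4. Its sums in the other macrophages were 514 and 467 CPM.

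Markers of lymphocytes, mast cells and eosinophils were near 0, while those of other myeloid cells, which macrophages share in part, were not. The 9 monocyte markers summed to 4850 CPM in the control and 3763 CPM in IL4, against 4087 and 4244 CPM in the other macrophages. Fn1 held 6182 of these 10986 control UMIs and 1122 of these 3205 IL4 UMIs. In both libraries Fn1 was past 2-fold higher than in the other macrophages, while Ly6c2 and Plac8 were past 2-fold lower. Plac8 stood at 656 against 1984 CPM in the control and at 1147 against 2424 CPM in IL4. The 11 markers of resident-like macrophages summed to 1509 and 1774 CPM against 1641 and 1275 CPM. Of these, F13a1, Mrc1 and Pf4 were above the other macrophages in both libraries and the rest below. Folr2, Cbr2 and Ccl8 were kept low by the rule. The 8 osteoclast markers summed to 102 and 95.1 CPM against 46.2 and 53.5 CPM, with Calcr and Oscar at 0. The 7 markers of conventional type 1 dendritic cells summed to 208 and 193 CPM against 300.0 and 333 CPM, and the 6 of plasmacytoid dendritic cells to 317 and 503 CPM against 515 and 631 CPM. The 8 T cell markers summed to 15 UMIs in all 151 control cells and 9 in the 61 IL4 cells, with the 3 Cd3 genes at 0 by the rule. The 8 neutrophil markers summed to 413 UMIs (182 CPM) in the control and 33 UMIs (38.7 CPM) in IL4, against 92.9 and 67.1 CPM in the other macrophages. Ly6g was at 0 in both, and 43.3% of the control's neutrophil marker UMIs came from 1 barcode. The 8 melanoma markers summed to 263 and 196 CPM, against 179 and 198 CPM in the other macrophages, with Tyr and Sox10 at 0 in both libraries. Of these 596 control and 167 IL4 UMIs, 585 and 162 were of Mitf, a transcription factor gene that macrophages express too. The 6 mast cell or basophil markers had 1 and 0 UMIs and the 5 eosinophil markers 2 and 0. No doublet caller was run, and the part of any of these in the results below was not tested unless a value is given.

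The chosen cells made up 151 of 8937 kept barcodes in the control (1.69%, interval 1.43% to 1.98%) and 61 of 13762 in IL4 (0.443%, interval 0.339% to 0.569%). The IL4 share was lower by 1.25 percentage points (Newcombe interval of IL4 minus control, -1.55 to -0.969), a ratio of 3.81 between control and IL4. The same order was seen in barcodes of either sex. Among Xist-only barcodes the shares were 1.14% (49 of 4296) and 0.428% (43 of 10058), a ratio of 2.67. Among Y-only barcodes they were 2.76% (69 of 2497) and 0.570% (7 of 1227), a ratio of 4.84. As a share of the chosen cells and the other macrophages together, the values were 3.29% (151 of 4583) and 0.928% (61 of 6574). A share that is lower because there were fewer such cells cannot be told apart from one that is lower because a like number of cells carried less Spp1, Lpl or Ccl24 RNA. The other macrophages also had less of all 4 genes, as CPM, in IL4 than in the control.

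The chosen cells were then set against the other macrophages of the same library. These were kept barcodes outside the choice with at least 3 UMIs of Csf1r, Adgre1, C1qa, C1qb and C1qc together, under the same lymphocyte and dendritic cell limits, and with fewer than 10 UMIs of S100a8 and S100a9. There were 4432 of them in the control and 6513 in IL4. Their median depth was 9515 and 8355 UMIs, lower than the 13588 and 12511 of the chosen cells. A gene was called higher or lower where it was past 2-fold in the same direction in both libraries. Of 13368 genes 79 were higher (0.591%) and 208 lower (1.56%). Beyond the genes that made the choice, the highest ratios, taking the library nearer to 0, were those of Ppbp, Cd9, Clec4n, Csf1 and Fabp4.

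Among genes of lipid uptake, 3 of 12 that could be compared were higher, against 0.591% of all genes. Lpl, 1 of the 3, had made the choice. Fabp5, the epidermal fatty acid binding protein that carries fatty acids in the cytosol, stood at 1238 CPM in the chosen control cells and 451 CPM in the other macrophages (2.74-fold, interval 2.64 to 2.85). In IL4 the levels of Fabp5 were 1392 and 425 CPM (3.28-fold, interval 3.09 to 3.47). Fabp4, the adipocyte form that macrophages also make, stood at 26.9 and 6.66 CPM in the control and at 129 and 6.52 CPM in IL4, where 64.5% of its UMIs came from 1 barcode. Cd36, the scavenger receptor for oxidised lipoproteins and long-chain fatty acids, was at 400 and 153 CPM in the control (2.62-fold) and at 257 and 138 CPM in IL4 (1.86-fold), so that it missed the call in IL4.

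The name "lipid-handling" was borne out only for this small set. Of the genes of lipid droplets and storage 0 of 14 were called, of cholesterol efflux and LXR targets 0 of 13, of PPAR targets and lipid oxidation 0 of 13, and of cholesterol synthesis 0 of 15. Their median log2 ratios were 0.00, -0.17, -0.13 and 0.70 in the control and 0.19, 0.21, -0.05 and 0.04 in IL4, beside -0.12 and -0.10 over all genes. Among 18 genes that mark lipid-associated macrophages in adipose tissue and elsewhere, 6 passed as higher and 0 as lower. Over all genes 0.591% were higher and 1.56% lower. The 6 were Gpnmb, Cd9, Cd63, Fabp5, Ctsl and Csf1. The median of that list was 0.74 in the control and 1.0 in IL4. Cd9, a tetraspanin of the plasma membrane, stood at 573 against 123 CPM in the control (4.65-fold, interval 4.37 to 4.94) and at 393 against 86.5 CPM in IL4 (4.55-fold, interval 4.06 to 5.08). After thinning to 2000 UMIs, 50.3% and 45.9% of the chosen cells had a Cd9 UMI, against 16.4% and 12.7% of the other macrophages and 17.4% and 10.0% of T cell barcodes. Ctsl, the lysosomal protease cathepsin L, had 585 against 257 CPM in the control and 764 against 252 CPM in IL4. It was the only 1 of 10 cathepsins that was called.

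Secreted proteins that act on matrix and on other cells formed the other side of the program. Of 13 matrix metalloproteases and inhibitors 3 were higher, against 0.591% of all genes. The 3 were Mmp12, which made the choice, the collagenase Mmp13 (32.7 against 7.80 CPM in the control, 32.9 against 8.71 CPM in IL4) and the membrane-bound Mmp14 (2.11-fold and 2.08-fold). Fn1, encoding fibronectin, stood at 2729 against 848 CPM in the control (3.22-fold) and at 1317 against 570 CPM in IL4 (2.31-fold). Csf1, the growth factor of the macrophage lineage itself, was at 199 against 24.97 CPM in the control (7.98-fold, interval 7.14 to 8.90) and at 77.5 against 20.4 CPM in IL4 (3.79-fold, interval 2.92 to 4.86). Inhba, the subunit of activin A, was 3.16-fold and 3.0-fold higher, and the coagulation factor gene F7 3.27-fold and 5.04-fold.

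Of 21 chemokines 3 were higher and 2 lower, against 0.591% and 1.56% of all genes, and for Ccl24 (higher) and Ccl8 (lower) the rule had fixed the side. The lower one outside the rule was Ccl17. The other higher ones were the platelet-type CXC chemokine Ppbp (58.3 against 10.2 CPM in the control and 49.3 against 6.59 CPM in IL4) and the neutrophil attractant Cxcl3 (4.36-fold and 2.29-fold). The C-type lectin Clec4n, which encodes Dectin-2 and senses fungal mannans, stood at 747 against 202 CPM in the control (3.70-fold) and at 613 against 159 CPM in IL4 (3.85-fold). Clec5a, another activating lectin of myeloid cells, was 3.21-fold and 3.87-fold higher.

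A few genes of the IL-4 and interferon-γ responses differed between the chosen cells and the other macrophages. Of 23 genes of the IL-4 response 3 were higher (Arg1, Ccl24 and Mmp12) and 4 lower (Retnla, Ccl17, Cd209a and Batf3), against 0.591% and 1.56% of all genes. Ccl24 and Mmp12 had made the choice, which leaves Arg1 as the higher gene outside the rule. Retnla, encoding the secreted protein RELMα, stood at 6.18 against 119 CPM in the control and at 14.1 against 48.9 CPM in IL4. Arg1, encoding arginase 1, had 893 against 340 CPM in the control (2.63-fold, interval 2.51 to 2.75) and 649 against 198 CPM in IL4 (3.27-fold, interval 3.0 to 3.57). Of 18 genes of the interferon-γ response 2 were lower, Gbp2 and Gbp5, against 1.56% of all genes. The median of that list was -0.80 in the control and -0.62 in IL4. Of 16 genes of the type I interferon response 0 passed as higher and 1 as lower. The median of the list was -1.49 in the control and -0.43 in IL4. Pltp, the phospholipid transfer protein, was at 23.4 against 96.5 CPM and at 29.4 against 80.6 CPM. Of 24 genes of hypoxia and glycolysis only Egln3 passed the call (2.13-fold and 2.21-fold higher), while the median was 0.84 and 0.59.

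Against the 3 populations most like them, each with fewer than 10 Spp1 UMIs, the chosen cells shared single genes but not one whole pattern. Resident-like macrophages (at least 3 UMIs of Folr2, Cbr2 and Ccl8) had as much Cd63, a lysosomal tetraspanin, as the chosen cells, with 235 against 244 CPM in the control and 231 against 227 CPM in IL4. They had more Lpl (159 and 154 CPM) than the other macrophages as a whole (102 and 86.1 CPM). The receptor gene Trem2 had a mean of 1.67 and 1.86 UMIs per 10000 in them, against 1.18 and 1.70 in the chosen cells. Arg1-high macrophages (at least 10 Arg1 UMIs) had 385 CPM of Ccl24 in the control and 364 in IL4, the latter close to the 443 CPM of the chosen IL4 cells. Their Ppbp was also high, at 48.0 and 23.9 CPM, as was Fn1, at 1640 and 1511 CPM. Gpnmb had a UMI in 19.4% of Arg1-high cells in the control and 12.4% in IL4, against 16.6% and 26.2% of the chosen cells. Inflammatory macrophages (at least 10 UMIs of Cxcl1, Cxcl3 and Il1a) had more Cxcl3, a gene that defined them, at 560 and 583 CPM against 425 and 319 CPM in the chosen cells. Cd9, Clec4n, Csf1 and Fabp5 were higher in the chosen cells than in each of the 3 populations in both libraries.

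**Figure D2:**
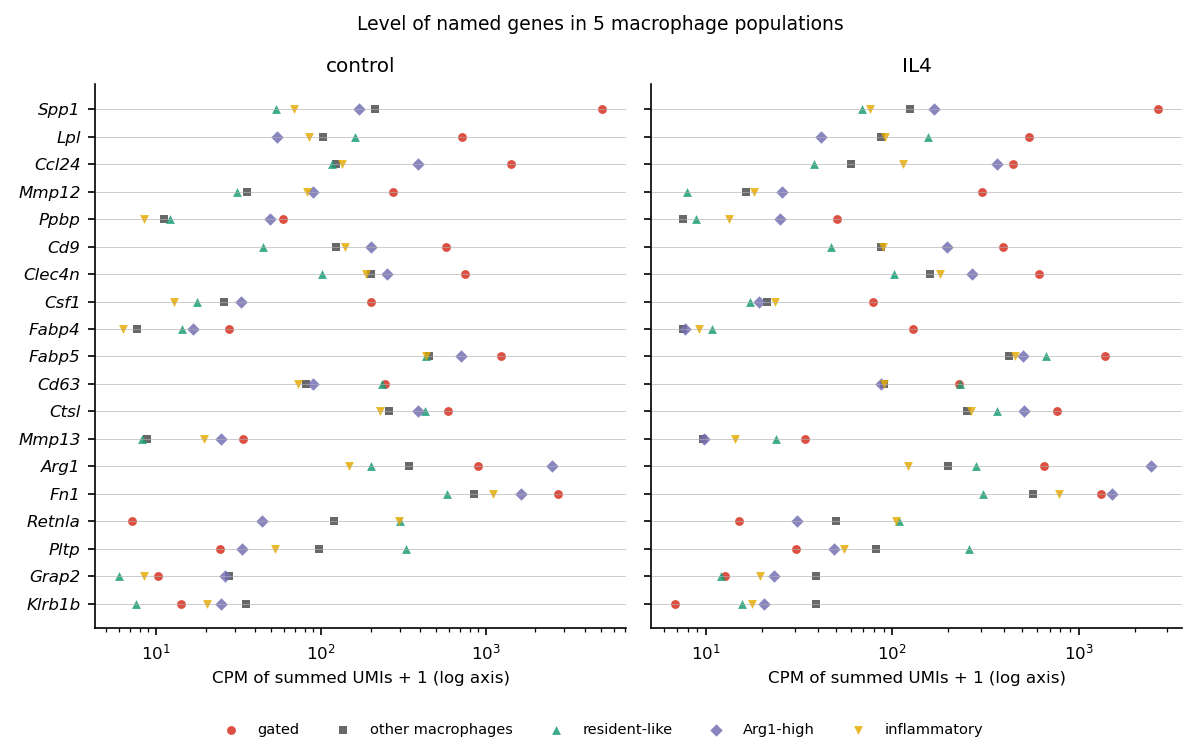
CPM of summed UMIs plus 1 (x, log axis) of 19 genes in the chosen cells (red circles), the other macrophages (grey squares) and the resident-like, Arg1-high and inflammatory populations, in the control (left) and IL4 (right) library, with 1 point per population and no error bars. The red circles lie farthest right for Spp1, Lpl, Ccl24, Mmp12, Cd9, Clec4n, Csf1 and Fabp5 in both libraries, the Arg1-high diamonds lie farthest right for Arg1, and Retnla is lowest in the chosen cells.

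The 212 cells were not 1 uniform kind. Of the 151 control cells 109 had a UMI of Lpl, 94 of Ccl24 and 36 of Mmp12, and in IL4 38, 32 and 18 of 61. All 3 genes were seen together in 7 control and 4 IL4 cells, and 70 and 38 cells had only 1 of them. A Lpl route (at least 3 Lpl UMIs and fewer than 3 Ccl24 UMIs) held 59 control and 24 IL4 cells, or 39.1% and 39.3%. A Ccl24 route (at least 3 Ccl24 UMIs and fewer than 3 Lpl UMIs) held 41 and 22 cells, or 27.2% and 36.1%. Both limits were met by 32 control (21.2%, interval 14.97% to 28.6%) and 5 IL4 cells (8.20%, interval 2.72% to 18.1%), and neither by 19 and 10. Mmp12 reached 3 UMIs in 26 and 13 cells. The Lpl route was deeper, with a median of 15765 and 15334 UMIs against 11211 and 10540.5 in the Ccl24 route.

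Cells of the Ccl24 route had more Arg1 UMIs than those of the Lpl route. The median Arg1 UMI count per barcode was 11 in the control and 9.5 in the IL4 cells of the Ccl24 route, and 0 and 0 in the Lpl route. It was 6 and 6.5 in cells of neither route, and 1 and 5 in cells that met both limits. Over the 151 control cells the Spearman correlation of UMIs per barcode total was -0.38 between Lpl and Arg1 and 0.20 between Ccl24 and Arg1. Over the 61 IL4 cells it was -0.31 and 0.39. Between Lpl and Ccl24 themselves it was -0.08 and -0.42, which the rule shapes, since a cell with little of one needed some of the other. All of these correlations describe cells that were chosen by Lpl, Ccl24 and Mmp12, that share a library and that differ in depth. The part of the choice in the values with Arg1 was not tested.

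**Figure D3:**
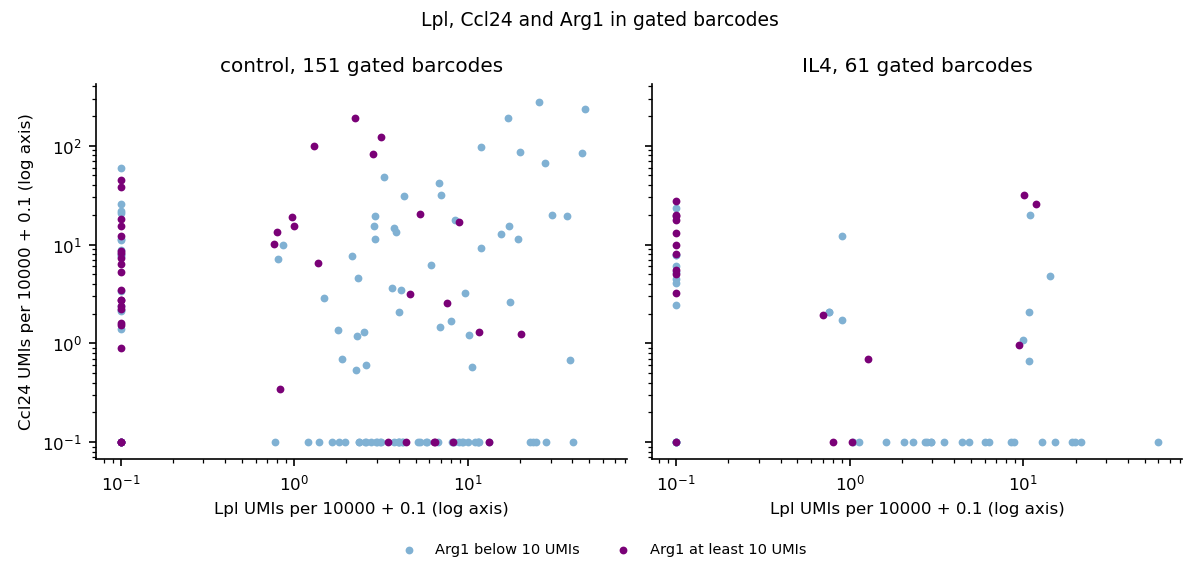
Lpl UMIs per 10000 UMIs plus 0.1 (x, log axis) against Ccl24 UMIs per 10000 plus 0.1 (y, log axis) in each of the 151 control (left) and 61 IL4 (right) cells, with cells of at least 10 Arg1 UMIs in purple (43 and 18 cells) and the others in blue. Points at 0.1 had no UMI of that gene. Most purple points lie at low Lpl, and the cells with much Lpl and no Ccl24 are mostly blue.

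The routes differed in more than the genes that defined them. These classes, and the genes named for them, were chosen after the values were seen. Of 2021 genes that could be compared in both libraries 27 were past 2-fold higher in the Ccl24 route (1.34%) and 14 higher in the Lpl route (0.693%), and Ccl24 and Lpl, which defined the routes, are counted among them. Arg1 stood at 2318 CPM in the Ccl24 route and 350 CPM in the Lpl route of the control (6.62-fold, interval 5.87 to 7.48), and at 882 and 141 CPM in IL4 (6.26-fold, interval 4.64 to 8.59). Thbs1, encoding the matricellular protein thrombospondin 1, had 2736 against 562 CPM in the control and 1897 against 684 CPM in IL4. For Pf4, the chemokine platelet factor 4, these values were 1045 against 294 CPM and 1458 against 210 CPM. Vegfa, the angiogenic growth factor, and Bnip3 and Ndrg1, genes that respond to low oxygen, were also higher in the Ccl24 route, Vegfa with 339 against 125 CPM and 290 against 64.0 CPM.

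On the side of the Lpl route stood Lipa, the lysosomal acid lipase, with 24.6 CPM in the Ccl24 route against 73.1 CPM in the Lpl route of the control and 41.4 against 164 CPM in IL4. C1qbp, Hspd1 and Phb2, whose proteins sit in mitochondria, were higher in the Lpl route, C1qbp with 148 against 45.2 CPM and 151 against 45.6 CPM. Anxa1, encoding annexin A1, was at 501 against 218 CPM and at 479 against 228 CPM, and H2-DMa, a chaperone of peptide loading on MHC class II, at 487 against 230 CPM and at 412 against 191 CPM.

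A further class passed the Spp1 limit without the rest. In the control 140 and in IL4 91 barcodes had no UMI of Lpl, Ccl24 or Mmp12 but met the other limits of the choice. The class kept those that also met the limit on S100a8 and S100a9 set for the other macrophages, 132 and 91 barcodes. The chosen cells were not under that limit, and 2 of them in the control did not meet it. This class was also defined after the data had been seen, and its median depth of 9845.5 and 8833 UMIs was lower than that of the chosen cells. Its median Spp1 count was lower too, at 20.5 UMIs in the control and 15 in IL4, against 33 and 22 in the chosen cells. Of 4585 genes 11 were past 2-fold higher in the chosen cells in both libraries (0.24%) and 12 lower (0.262%), and 3 of the 11 were Lpl, Ccl24 and Mmp12 themselves. The other 8 were Fabp4, Ppbp, Nudcd2, Taf4b, Timp2, Csf1, Fabp5 and Nr1h3. Fabp5 stood at 1238 CPM in the chosen cells against 565 CPM in the control (2.19-fold, interval 2.03 to 2.38) and at 1392 against 684 CPM in IL4 (2.03-fold, interval 1.85 to 2.24). Csf1 stood at 199 against 82.3 CPM and at 77.5 against 37.1 CPM. Nr1h3, encoding the oxysterol receptor LXRα, rested on 51 against 6 UMIs in the control (22.5 against 4.33 CPM) and was at 44.6 against 21.8 CPM in IL4. Vegfa was higher in the cells without Lpl, Ccl24 and Mmp12, with 472 against 188 CPM and 367 against 164 CPM, as was Cd209a, a lectin of monocyte-derived dendritic cells, with 71.5 against 17.7 CPM and 80.6 against 17.6 CPM.

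The question of the study, what transfer of IL-4-treated macrophages does to the tumour's immune cells, was then put to the chosen cells by setting the IL4 library beside the control. Here 2265043 control and 851710 IL4 UMIs were summed. Of 6117 genes with at least 50 UMIs, 425 were past 1.5-fold higher in IL4 (6.95%) and 479 lower (7.83%). Over all 6117 the median log2 ratio was -0.004. The interval lay wholly past 1.5-fold for 80 higher and 46 lower genes. With the richest barcode of each gene left out, added after seeing the data, 351 genes were higher and 640 lower. One barcode is a larger part of the 61 IL4 cells than of the 151 control cells, which bears on these counts. Of the genes that made the choice, Spp1 stood at 5052 CPM in the control and 2663 in IL4 (log2 ratio -0.92), Ccl24 at 1424 and 443 (log2 ratio -1.68), Lpl at 712 and 544 (log2 ratio -0.39) and Mmp12 at 274 and 302 (log2 ratio 0.14). Their ratios in the other macrophages were -0.78, -1.04, -0.25 and -1.10. Among Xist-only cells the Ccl24 ratio was -0.54 and the Spp1 ratio -1.23.

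Cholesterol synthesis genes were lower in the IL4 cells. Of the 11 members with enough UMIs 9 were past 1.5-fold lower and 0 higher, against 7.83% of all genes lower. The median log2 ratio was -0.89 in the chosen cells, -1.18 in the Xist-only ones and -0.33 in the other macrophages. Summed over the list, the level was 927 CPM in the control and 524 CPM in IL4 (control over IL4 1.77-fold, interval 1.60 to 1.96). It was 915 and 530 CPM in Xist-only cells and 1053 and 534 CPM in Y-only cells, of which IL4 had 7. The other macrophages had 684 and 621 CPM, and the cells with Spp1 but without Lpl, Ccl24 and Mmp12 had 754 and 664 CPM. The higher value thus lay in the control cells, and the IL4 cells were below the other macrophages of their library.

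Enzymes of early and late steps of the pathway were among the 9. Cyp51, the sterol 14-demethylase, stood at 120 CPM in the control and 37.6 CPM in IL4 (control over IL4 3.20-fold, interval 2.21 to 4.77). Idi1, the isopentenyl diphosphate isomerase, stood at 58.7 and 19.96 CPM (2.94-fold, interval 1.77 to 5.20) and Sqle, the squalene epoxidase, at 37.1 and 12.9 CPM (2.87-fold, interval 1.53 to 5.97). Fdps, which makes farnesyl diphosphate, was at 118 and 61.1 CPM (1.93-fold, interval 1.43 to 2.65). Hmgcs1, the HMG-CoA synthase of an early step, was at 90.5 and 56.4 CPM, with a log2 ratio of -0.22 among Xist-only cells, which is not past 1.5-fold. Mvd stood at 27.8 and 14.1 CPM and Fdft1 at 31.3 and 16.4 CPM. The 2 regulators were Srebf2, encoding the transcription factor SREBP2 (76.4 and 49.3 CPM), and Insig1, encoding its anchor in the endoplasmic reticulum (66.7 and 39.9 CPM). Insig1 was the only 1 of the 9 that was higher in IL4 in the other macrophages, with a log2 ratio of 0.15, and among Y-only cells it was higher in IL4 as well. Those genes that lie outside the naming rule (Srebf2, Hmgcs1, Mvd, Fdft1 and Insig1) are given because they are members of the list past the fold.

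Genes of cholesterol efflux lay on the other side. Of 11 members 5 were past 1.5-fold higher in IL4 and 0 lower, against 6.95% of all genes higher. Their median log2 ratio was 0.51 (0.62 in Xist-only cells, 0.13 in the other macrophages). Apoe, the apolipoprotein that macrophages load with cholesterol, stood at 874 CPM in the control and 1745 CPM in IL4 (2.0-fold, interval 1.86 to 2.14). The cholesterol pumps Abca1 (124 and 224 CPM) and Abcg1 (53.4 and 101 CPM) were 1.81-fold and 1.89-fold higher, Abca1 being named as a member of the list past the fold. Nr1h3, encoding LXRα, stood at 22.5 and 44.6 CPM (1.98-fold, interval 1.27 to 3.08). Mylip, a ubiquitin ligase gene that LXR induces, stood at 22.5 and 55.2 CPM (2.45-fold, interval 1.61 to 3.72). Summed, the list was at 2223 and 3683 CPM in the chosen cells and at 2878 and 3270 CPM in the other macrophages. The control cells were below the other macrophages and the IL4 cells above them.

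The type I interferon response was higher in IL4. Of 12 members 10 were past 1.5-fold higher and 0 lower, against 6.95% of all genes higher. The median log2 ratio of the list was 1.51, against 0.53 in the other macrophages. Summed, the list stood at 813 CPM in the control and 2226 CPM in IL4 (2.74-fold, interval 2.57 to 2.92), and at 2080 and 3069 CPM in the other macrophages (1.48-fold). The mix of sexes moved with this result. In Xist-only cells the sums were 1237 and 2357 CPM (1.90-fold, interval 1.75 to 2.07). In Y-only cells they were 521 and 2477 CPM (4.75-fold, interval 4.02 to 5.60, with 7 IL4 cells). The median log2 ratio in Xist-only cells was 0.99.

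Rsad2, encoding the antiviral enzyme viperin, stood at 76.4 CPM in the control and 359 CPM in IL4 (4.70-fold, interval 3.89 to 5.70, log2 ratio 1.01 in Xist-only cells). Oasl1, an oligoadenylate synthetase-like protein, stood at 87.0 and 349 CPM (4.01-fold, interval 3.34 to 4.83). Isg15, the ubiquitin-like modifier, stood at 167 and 518 CPM (3.09-fold, interval 2.69 to 3.56). In the control 23.7% of Rsad2 and 25.4% of Oasl1 UMIs came from 1 barcode. Irf7, the transcription factor that amplifies the response, was at 39.7 and 113 CPM, and Ifit2 (19.4 and 61.1 CPM) and Ifit3 (16.8 and 52.8 CPM) lay on the same side. The other members past the fold were Oasl2, Oas1a, Ifi204 and Ifi205, which like Irf7 and Ifit3 are named as members of the list.

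Promoter sequence was looked at for both lists, since their members lay on 1 side together. In the RefSeq table of the GRCm38.p6 build, the 250 bases before the gene start were searched on both strands for GAAA, any 2 bases and GAAA again, the core of the interferon-stimulated response element (ISRE), and for TCACNCCAC, a core of the sterol response element bound by SREBP2. The ISRE core was found in 978 of all 32851 promoters (2.98%) and in 8 of the 14 listed interferon genes with an entry. Of the 10 interferon genes higher in IL4, 9 had an entry and 5 had a match (Ifi205, Ifit3, Isg15, Oas1a and Rsad2). The sterol core was found in 346 of all promoters (1.05%) and in 1 of the 9 listed cholesterol synthesis genes with an entry, Hmgcs1. These matches describe letters in a window and do not show binding. The stretch of Isg15 is shown for its run of matches, that of Oas1a for a match next to the start, that of Rsad2 as the gene of the highest ratio among the 5, and that of Hmgcs1 as the only sterol match. They run 5′ to 3′ on the gene's strand with the match in capitals, and the capitals cover overlapping matches where there are several. Isg15 lies on the minus strand, chr4:156200845-156200926, 108 to 27 bases before the start, and holds 3 overlapping matches. Oas1a lies on the minus strand, chr5:120907526-120907575, 50 to 1 bases before the start, and holds 2. Rsad2 lies on the minus strand, chr12:26456533-26456602, 150 to 81 bases before the start, with 1 match on the opposite strand. Hmgcs1 lies on the plus strand, chr13:119690184-119690252, 167 to 99 bases before the start, with 1 match.
Isg15: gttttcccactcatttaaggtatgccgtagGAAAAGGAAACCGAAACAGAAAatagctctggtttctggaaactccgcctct
Oas1a: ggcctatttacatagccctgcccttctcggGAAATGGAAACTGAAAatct
Rsad2: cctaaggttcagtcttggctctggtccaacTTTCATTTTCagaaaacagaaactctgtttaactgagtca
Hmgcs1: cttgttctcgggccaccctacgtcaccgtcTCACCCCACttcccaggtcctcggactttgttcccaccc

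**Figure D4:**
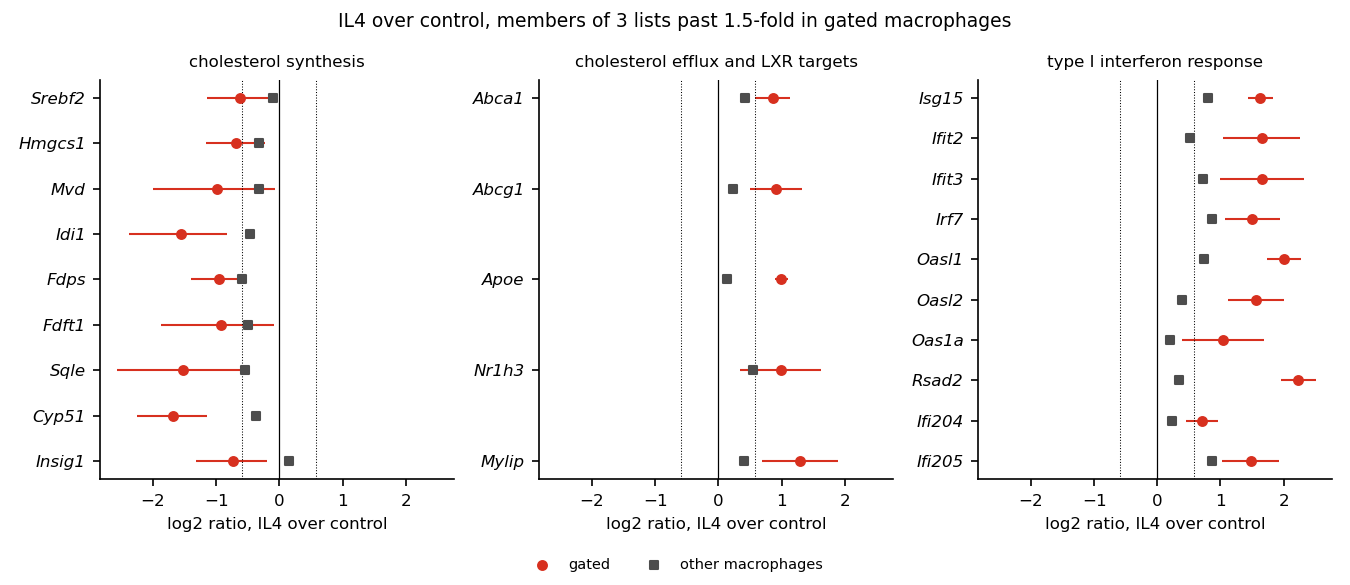
Log2 ratio of IL4 over control (x) for the members of 3 lists that were past 1.5-fold in the chosen cells, with red circles for the chosen cells and their 95% counting intervals as bars, and grey squares for the other macrophages. Dotted lines mark 1.5-fold in either direction. The 9 cholesterol synthesis genes lie left of 0 and the 5 efflux and 10 interferon genes right of it, and the grey squares lie nearer to 0, Insig1 on the other side of it.

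The highest single ratios in IL4 were those of a cytokine and a chemokine. Il10, the anti-inflammatory cytokine, stood at 18.1 CPM in the control and 130 CPM in IL4 (log2 ratio 2.78, fold interval 4.99 to 10.6), with its UMIs in 19 and 28 barcodes. The other macrophages had 52.5 and 142 CPM of Il10, so the control cells were low and the IL4 cells near their level. Ccl5, which attracts T cells, stood at 56.1 and 338 CPM (6.03-fold, interval 4.88 to 7.49), and at 135 and 372 CPM in the other macrophages. Of 17 chemokines 9 were past 1.5-fold higher, against 6.95% of all genes, and 1 was lower, Ccl24, a gene of the rule. Cxcl10, an attractant of activated T cells, was at 324 and 776 CPM (2.39-fold, interval 2.15 to 2.66). Acod1, the enzyme that makes itaconate, was at 96.7 and 309 CPM, Cfb, complement factor B, at 14.1 and 50.5 CPM, and Ms4a7, a membrane protein of macrophages, at 42.8 and 143 CPM. Among the 12 macrophage markers 4 were past 1.5-fold higher, against 6.95% of all genes, namely Apoe, Adgre1 (75.9 and 144 CPM), C1qa (449 and 791 CPM) and C1qb (894 and 1362 CPM). Of 8 monocyte markers 4 were higher (Ly6c2 with 48.1 and 131 CPM, Plac8 with 656 and 1147 CPM, Chil3 and Hp) and 2 lower (F10 and Fn1), against 6.95% and 7.83% of all genes. The part of the monocyte markers in the other differences was not tested.

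Hypoxia and heat shock genes were lower in IL4 in part of their lists. Of 23 genes of hypoxia and glycolysis 10 were past 1.5-fold lower and 0 higher, against 7.83% of all genes lower. The count was 4 with the Spp1 limit at 5 UMIs and 2 at 2-fold. The list's median was -0.47, against -0.28 in the other macrophages. Slc2a1, the glucose transporter GLUT1, stood at 284 and 143 CPM (control over IL4 1.98-fold), Egln3, an oxygen-sensing prolyl hydroxylase, at 143 and 68.1 CPM (2.10-fold, but a log2 ratio of -0.09 among Y-only cells, of which IL4 had 7) and Ero1l, an oxidase of the endoplasmic reticulum, at 361 and 155 CPM (2.33-fold). The 10 held also Gpi1, Pfkl, Pgk1, Eno1, Pdk1, Ankrd37 and P4ha1, while Vegfa was at 188 and 164 CPM. Of 12 heat shock genes 6 were lower and 0 higher (median -0.63), against 7.83% of all genes lower. The count was 1 at 2-fold, and the other macrophages had a median of -0.71. Hsph1 stood at 314 and 115 CPM in the chosen cells and at 279 and 108 CPM in the other macrophages.

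Other genes that were lower in IL4 included Flt1, a VEGF receptor (51.2 and 8.22 CPM, from 34 and 5 barcodes), and Csf1 (199 and 77.5 CPM). The Csf1 log2 ratio was -2.24 in Xist-only cells and -0.01 in Y-only cells. Gbe1, the glycogen branching enzyme, was at 79.0 and 22.3 CPM, and Mgl2, a lectin that IL-4 induces, at 148 and 42.3 CPM. Mgl2 was also lower in the other macrophages, with 106 and 57.7 CPM, and 37.8% of its control UMIs came from 1 barcode. Of the IL-4 response list 3 were higher (Chil3, Socs1 and Irf4) and 4 lower (Clec10a, Mgl2, Ccl24 and Flt1) of 19, against 6.95% and 7.83% of all genes, and the median was -0.18. Ccl24 is a gene of the rule. The lowest ratio of all named genes was that of S100a9, a neutrophil protein, with 206 UMIs in the control (90.9 CPM) and 1 UMI in IL4, and 64.6% of the control UMIs came from 1 barcode. Without the 2 control cells of at least 10 UMIs of S100a8 and S100a9, a choice made after seeing the data, the sums of the cholesterol synthesis list were 924 and 524 CPM and those of the interferon list 820 and 2226 CPM. Markers of conventional type 2 dendritic cells, which macrophages share in part, summed to 290 and 136 CPM, and those of NK cells to 9.27 and 27.0 CPM. Their part in the other differences was not tested.

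The lists were also followed along the routes, since the mix of routes differed between the libraries. Cholesterol synthesis genes summed to 858 CPM in the control and 427 CPM in IL4 in the Ccl24 route, and to 942 and 579 CPM in the Lpl route. Efflux genes summed to 2693 and 4756 CPM and to 2251 and 3517 CPM. The interferon list summed to 1055 and 2515 CPM and to 719 and 1873 CPM, and the hypoxia list to 13706 and 7482 CPM and to 9123 and 6781 CPM. In each of these 4 lists both routes lay on the same side as the chosen cells together.

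**Figure D5:**
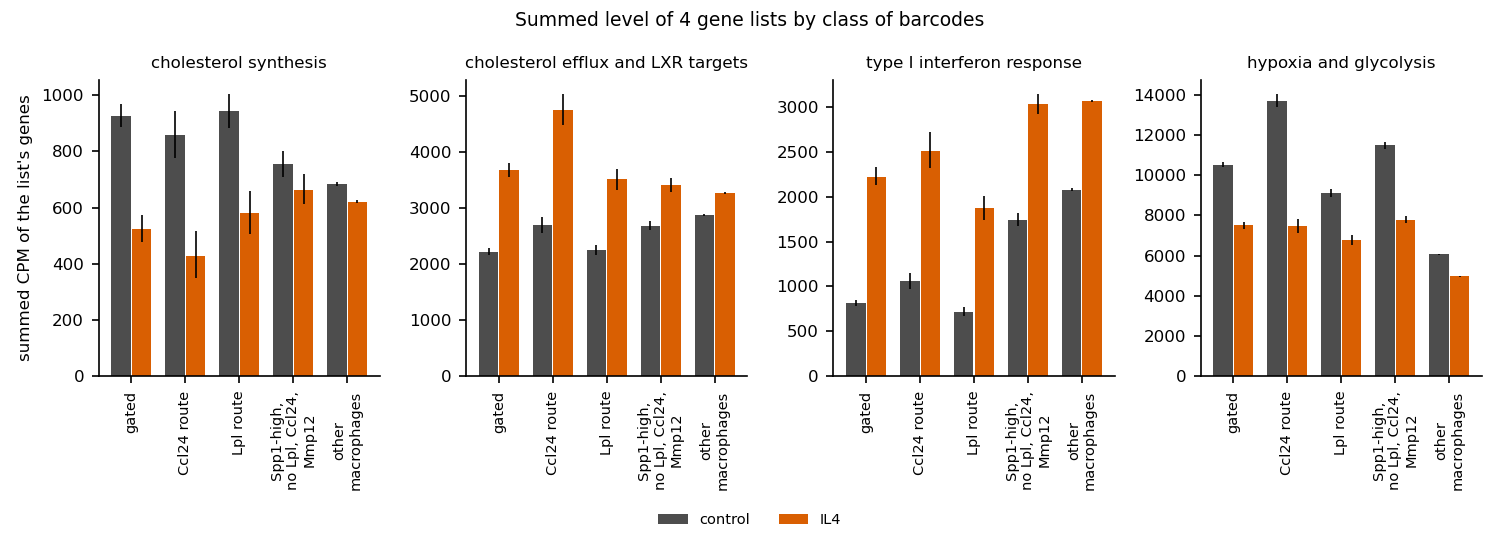
Summed CPM of 4 gene lists (y, from 0) in the control (grey bars) and IL4 (orange bars) library, for the chosen cells, their Ccl24 and Lpl routes, the cells with Spp1 but without Lpl, Ccl24 and Mmp12, and the other macrophages, with exact Poisson 95% intervals as error bars. In the chosen cells and both routes the orange bar is lower for cholesterol synthesis and for hypoxia and glycolysis and higher for efflux and for interferon genes, and the steps in the other macrophages are smaller.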

How the data were processed

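UMI counts per gene and barcode, deposited by the authors as 1 filtered 10x matrix per library, were the only values used. The submitters' processing notes name Cell Ranger 7.2.0 and the mouse build mm10. How barcodes were called, and whether free RNA or doublets were removed, is not stated by the labels or notes. Both matrices list 32285 genes.

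A barcode was kept with 500 or more UMIs, 250 or more genes and no more than 10% of its UMIs mitochondrial, and the cells were chosen by the UMI limits given in the text. No doublet caller was run. UMIs were summed over the barcodes of each population and library and given as CPM. Log2 ratios were formed with a pseudocount of 1 CPM, and genes entered with at least 50 UMIs. Intervals at 95% are exact Poisson for CPM, exact conditional binomial for folds, Clopper-Pearson for shares and Newcombe for differences of shares. With 1 library per group no test was possible, so a gene was called by fold alone, past 2-fold in both libraries against other macrophages and past 1.5-fold between IL4 and control. The libraries held 95499107 and 133151428 UMIs.

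Named against the other macrophages were the 15 genes with the highest and the 10 with the lowest ratio, taking the library nearer to 0, and between libraries the 10 highest and 10 lowest. From each list up to 4 members of the largest absolute ratio were added, with the genes of the rule. Mitochondrial, ribosomal, immunoglobulin, T cell receptor, haemoglobin, sex-linked (Xist and Y) and predicted genes were not named. Members and lists were chosen with earlier results of these data known.

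Alternatives moved the UMI limits, the fold, the pseudocount, the UMI minimum and the scaling, left out the deepest 10% of barcodes, or kept barcodes of 1 sex. The code was tested on simulated data. Python 3.11.15, numpy 2.4.6, scipy 1.17.1, pandas 2.3.3 and matplotlib 3.10.9 were used. Promoter sequences came from RefSeq (GRCm38.p6). Because age, sex and number of mice are not given, nothing shows how many animals each library stands for. Single values of some list members are not reported here.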

Additional observations from a re-analysis of the deposited data

Results flagged for a closer look

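Of the 425 genes higher and 479 lower in IL4, 303 and 391 lay on the same side of 0 in the other macrophages. Only 53 and 32 were also past 1.5-fold there. The share on the same side over all genes was not counted, so these counts do not show how far the differences were shared. For 2 named genes the IL4 to control ratio was past 1.5-fold on opposite sides in the chosen cells and the other macrophages. The difference was not tested. Cxcl9, a T cell attractant induced by interferon-γ, had a log2 ratio of 1.03 in the chosen cells (40.2 and 83.4 CPM) and -0.69 in the other macrophages (158 and 97.7 CPM), with 54.9% of the IL4 UMIs of the chosen cells from 1 barcode. The Cxcl9 ratio was 0.37 without the top barcode of each library. Edn1, encoding the vasoconstrictor endothelin 1, had a log2 ratio of -2.77 in the chosen cells (69.8 and 9.39 CPM) and 0.91 in the other macrophages (8.50 and 16.9 CPM). In the control 63.3% of its UMIs came from 1 barcode, and the Edn1 ratio was -1.72 without the top barcodes. For both genes, 1 barcode is a larger part of the fewer IL4 cells than of the control cells.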

How the results depend on the processing

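No paired analysis was possible because each group had 1 library. The control to IL4 ratio of shares was above 1 under every alternative run and lay between 2.67 (Xist-only barcodes) and 4.84 (Y-only). The median changed sign under no alternative for the 6 lists run through them (cholesterol synthesis, efflux, interferon, hypoxia, heat shock and, against the other macrophages, lipid-associated genes). Medians of several other lists did change sign among Xist-only cells, such as lipid uptake (-0.39 to 0.04) and neutrophil markers (-3.11 to 0.21). Of the single-gene ratios over all alternatives 1140 stayed within their counting interval, 254 moved and 3 of called genes changed sign. These 3 were Cxcl9 at -1.89 without the deepest 10% of barcodes, and Rdm1 at 0.55 and Insig1 at 0.93 among Y-only cells. Against the other macrophages, a ratio was set to 0 where the libraries disagreed in direction, which was not counted as a change of sign. The lowest ratio over the alternatives was 0 for Ppbp, Fabp4, Mmp13, Inhba and Clec5a. Mmp12 was not called between IL4 and control, and its ratio there lay between -0.37 and 0.56.

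Between IL4 and control, with a minimum of 20 UMIs 811 genes were higher and 896 lower, and at 2-fold 100 and 104. Among Xist-only cells 307 were lower, and among Y-only cells 723. With the top barcode of each gene left out, added after seeing the data, 351 were higher and 640 lower. That step takes a larger part of the fewer IL4 cells than of the control cells. With median-of-ratios scaling, which moved the median of all genes to -0.055, 356 were higher and 559 lower. Of cholesterol synthesis genes 4 of the 8 with enough UMIs were lower among Xist-only cells and 3 at 2-fold. Of efflux genes 1 was higher at 2-fold, and of interferon genes 5 of 6 among Y-only cells. Of hypoxia genes 4 were lower with the Spp1 limit at 5, 6 among Y-only cells and 2 at 2-fold, and of heat shock genes 1 at 2-fold.

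Against the other macrophages, the number of lower genes was 123 with the Spp1 limit at 5, 331 with it at 20, 333 without the deepest 10%, 444 among Xist-only and 508 among Y-only cells, and 926 against all other kept barcodes. With limits per UMI total 128 were higher and 343 lower, with a pseudocount of 5 CPM 31 and 36, and at 4-fold 8 and 10, with 1 lipid-associated gene higher. The 61 IL4 cells, 7 of them Y-only, limit the depth behind every ratio.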
